A study of Mus musculus with 21 samples.

Results

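The Dlk1-Dio3 locus is an imprinted stretch of mouse chromosome 12, and 52 of its genes are described here: 46 microRNA genes and the 6 long transcripts Dlk1, Meg3, Rian, Mirg, Rtl1 and Dio3. They were chosen by their symbols, from a locus that had drawn attention because its microRNAs differed between TSC1 knockout and Rptor knockout stem cells in these same arrays. The differences of those 2 groups from wild type and from each other are therefore given as a description, with no test. Of the 52 genes, 45 had a probeset that carries their symbol alone (40 microRNAs and 5 long transcripts), out of 19938 such genes on the array. Mirg and Mir410 share 1 probeset, Mir433 shares one with another transcript, and Mir493, Mir544, Mir758 and Mir770 are not named in the probe table used here. Every one of the 45 has exactly 1 probeset, so no choice among probesets was needed.

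Imprinted genes are transcribed from only one parental copy. In this locus the paternal copy gives the protein-coding genes Dlk1, Rtl1 and Dio3, while the maternal copy gives the noncoding RNAs Meg3, Rian and Mirg together with the microRNAs and the C/D box snoRNAs, which are processed from long maternal transcripts. The microRNAs lie in a group between Meg3 and Rian, some of them antisense to Rtl1, and in a large group from Mir379 onward that overlaps Mirg. A microRNA silences messenger RNAs that match its seed, the stretch near its 5′ end. In mice the locus is known for its activity in fetal muscle and in stem cells: in haematopoietic stem cells its microRNAs have been reported to restrain mTOR signalling, and in muscle the factor MEF2A has been reported to act on it.

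The arrays (Affymetrix Mouse Gene 1.0 ST) measured RNA of muscle stem cells, or satellite cells, sorted from hindlimb muscle as YFP-positive cells and lysed without culture. The study asks how an injury in one limb alters stem cells elsewhere, and what mTORC1 and cMet contribute. Quiescent satellite cells (QSC) came from noninjured mice and contralateral satellite cells (CSC) from the limb opposite a BaCl2 injury. The 21 arrays measured 12 pools of 3 to 4 mice aged 3 to 5 months, in 8 groups. Every mouse carried Pax7CreER/+ and Rosa26REYFP/+ and had received tamoxifen at least 2 weeks earlier, so that Cre acts in Pax7-expressing cells, and also in the animals called wild type (WT). For WT QSC 5 arrays measured 3 pools, and for WT CSC 2.5 days after the injury 4 arrays measured 3 pools. Each remaining group was a single pool measured on 2 arrays. One was WT CSC taken 28 days after the injury. Mice with TSC1flox/flox gave noninjured cells (TSC1 KO QSC). Mice with Rptrflox/flox gave noninjured cells (Rptor KO QSC) and cells of 2.5 days (Rptor KO CSC), as did mice with cMetflox/flox (cMet KO QSC and cMet KO CSC). TSC1 is an inhibitor of the kinase complex mTORC1, Rptor (raptor) is a subunit that mTORC1 needs, and cMet is the receptor of hepatocyte growth factor. The cMet knockout mice were of a C57BL6 and FVB mixture and the others of mixed C57BL6, so that cMet genotype and strain cannot be told apart.

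All levels are the deposited log2 signals, averaged over the arrays of a pool. Array medians ran from 7.03 to 7.21. The number of pools limits the precision. Where a group is 1 pool, nothing checks it against a replicate, and what belongs to the pool cannot be told apart from what belongs to the genotype or the time. The targeted genes did not check the labels: Tsc1 was at 8.16 in the TSC1 KO pool against 8.34 to 8.69 in WT QSC, Rptor at 9.19 in Rptor KO QSC against 8.91 to 9.58, and Met at 10.25 in cMet KO QSC against 9.93 to 10.11. The probesets of these genes need not lie in the deleted part. Of the 12 pools, the probeset of Tsc1 was lowest in TSC1 KO QSC, that of Rptor was lowest in Rptor KO CSC (8.85) but within the WT QSC range in Rptor KO QSC, and that of Met was above the WT QSC range in both cMet KO pools (10.13 in CSC). The Rptor KO pools and WT CSC pool 1 had the least alike pairs of arrays, with a median difference of 0.23 to 0.27 over all probesets against 0.08 to 0.17 in the other 6 pairs. Over the members the same 3 pairs differed by a median of 0.29 to 0.38. Satellite cell markers were bright in every pool, and Pax7 stood at 10.27 to 12.10. In pools of sorted cells, fewer cells of a type and less RNA per cell cannot be told apart.

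The microRNAs that the results turn on are shown first. Their mature sequences come from RefSeq (GRCm38.p6, chromosome 12, plus strand) and are printed 5′ to 3′ with the seed, bases 2 to 8, in capitals. All 46 microRNA genes matched an entry there, with 88 mature microRNAs and 85 different seeds. The arrays did not measure the mature microRNAs separately, and the labels do not say which form of RNA the microRNA probesets captured. The first set belongs to the 8 microRNA genes with the smallest p among those lower in WT CSC at 2.5 days.
mmu-miR-376b-5p: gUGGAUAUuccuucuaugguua
mmu-miR-376b-3p: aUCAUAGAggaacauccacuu
mmu-miR-377-5p: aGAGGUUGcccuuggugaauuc
mmu-miR-377-3p: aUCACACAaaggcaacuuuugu
mmu-miR-382-5p: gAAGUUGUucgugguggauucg
mmu-miR-382-3p: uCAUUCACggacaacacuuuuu
mmu-miR-543-5p: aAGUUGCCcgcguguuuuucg
mmu-miR-543-3p: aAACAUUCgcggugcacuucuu
mmu-miR-329-5p: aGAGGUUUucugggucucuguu
mmu-miR-329-3p: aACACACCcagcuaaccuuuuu
mmu-miR-154-5p: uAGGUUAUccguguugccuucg
mmu-miR-154-3p: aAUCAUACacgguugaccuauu
mmu-miR-665-5p: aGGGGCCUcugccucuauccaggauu
mmu-miR-665-3p: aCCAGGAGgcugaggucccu
mmu-miR-496a-5p: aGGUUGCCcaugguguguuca
mmu-miR-496a-3p: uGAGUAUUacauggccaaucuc

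The second set belongs to the microRNA genes with the widest gap between TSC1 KO QSC and Rptor KO QSC, beside Mir377 of the first set.
mmu-miR-495-5p: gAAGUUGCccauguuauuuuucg
mmu-miR-495-3p: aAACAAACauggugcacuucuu
mmu-miR-380-5p: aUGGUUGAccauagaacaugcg
mmu-miR-380-3p: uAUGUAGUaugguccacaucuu
mmu-miR-323-5p: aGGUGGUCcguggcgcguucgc
mmu-miR-323-3p: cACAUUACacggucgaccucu
mmu-miR-485-3p: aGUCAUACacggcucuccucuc
mmu-miR-341-5p: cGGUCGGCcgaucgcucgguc
mmu-miR-341-3p: uCGGUCGAucggucggucggu

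The third set belongs to the microRNA genes with the narrowest gap between the same pools.
mmu-miR-666-5p: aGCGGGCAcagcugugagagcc
mmu-miR-666-3p: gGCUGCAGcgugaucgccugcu
mmu-miR-667-5p: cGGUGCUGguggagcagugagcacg
mmu-miR-667-3p: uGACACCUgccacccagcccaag
mmu-miR-673-5p: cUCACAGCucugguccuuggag
mmu-miR-673-3p: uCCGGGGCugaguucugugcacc
mmu-miR-539-5p: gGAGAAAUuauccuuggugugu
mmu-miR-127-5p: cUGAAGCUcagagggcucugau
mmu-miR-127-3p: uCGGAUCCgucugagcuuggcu
mmu-miR-434-5p: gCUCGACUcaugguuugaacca
mmu-miR-434-3p: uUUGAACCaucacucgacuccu

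The seeds were mostly different even though the genes are neighbours. Of the 85 seeds, 3 were shared by 2 mature microRNAs each. The seed UGGAUAU is common to miR-376b-5p, above, and miR-376c-5p, which differ at 1 of 22 bases.
mmu-miR-376c-5p: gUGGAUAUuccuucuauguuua
The seed AUGUAAC is common to miR-379-3p and miR-411-3p, which differ at 2 of 22 bases.
mmu-miR-379-3p: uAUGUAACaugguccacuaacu
mmu-miR-411-3p: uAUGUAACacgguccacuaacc
The seed GGUUGUC is common to the 5p arms of miR-410 and miR-494. The 3p arms of miR-300 and miR-381 differ at 3 of 22 bases, as do those of miR-376a and miR-376b at 3 of 21. The probe sequences were not used here, and the signals of such close relatives (Mir376a, Mir376b and Mir376c, Mir379 and Mir411, Mir300 and Mir381) may not be wholly separate.

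WT stem cells opposite an injury had less RNA of the locus at 2.5 days than WT stem cells of noninjured mice. Of the 36 members bright enough to be tested, 20 fell past the threshold (limma, adjusted p under 0.05 over 13956 genes) and 0 rose. Over all tested genes 7.36% were called lower and 10.6% higher. The 20 were Rian and 19 of 32 tested microRNAs. Among all 45 members 44 had the lower mean in CSC, with a median difference of -0.69 on the log2 scale, beside -0.05 over all tested genes. Only Dio3, the deiodinase that inactivates thyroid hormone, had the higher mean. For 32 of the 45 all 3 CSC pools lay below all 3 QSC pools, among them all 20 called, while 19.1% of all tested genes separated in that direction.

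The count rests on few pools. It was 12 without WT QSC pool 1, 12 without WT QSC pool 3, 12 without WT CSC pool 1, 7 without WT CSC pool 2 and 4 without WT CSC pool 3. It was 24 without WT QSC pool 2. The share of all tested genes called is not set beside these counts. They therefore do not show whether the members lost calls more than other genes did. Rian kept its call under all 18 alternatives.

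The noncoding transcripts of the maternal copy were read first. Rian, the host of C/D box snoRNAs, was at 9.0, 10.10 and 9.39 in the WT QSC pools and at 8.33, 8.01 and 8.38 in the WT CSC pools. The groups did not overlap, and Rian fell by 1.25 ± 0.26 (SE, adjusted p = 0.0113). Meg3, the first noncoding gene of the maternal cluster, was at 11.58, 10.86 and 11.95 in WT QSC and 10.87, 11.23 and 10.50 in WT CSC. These overlapped, and the difference of -0.59 ± 0.28 (SE) did not pass (adjusted p = 0.183). The probeset shared by Mirg and Mir410 stood at 9.14, 8.86 and 9.60 in WT QSC and at 7.13, 9.02 and 8.68 in WT CSC. It carries more than 1 symbol and was not tested. Only WT CSC pools 1 and 3 lay below all WT QSC pools on it.

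**Figure D1:**
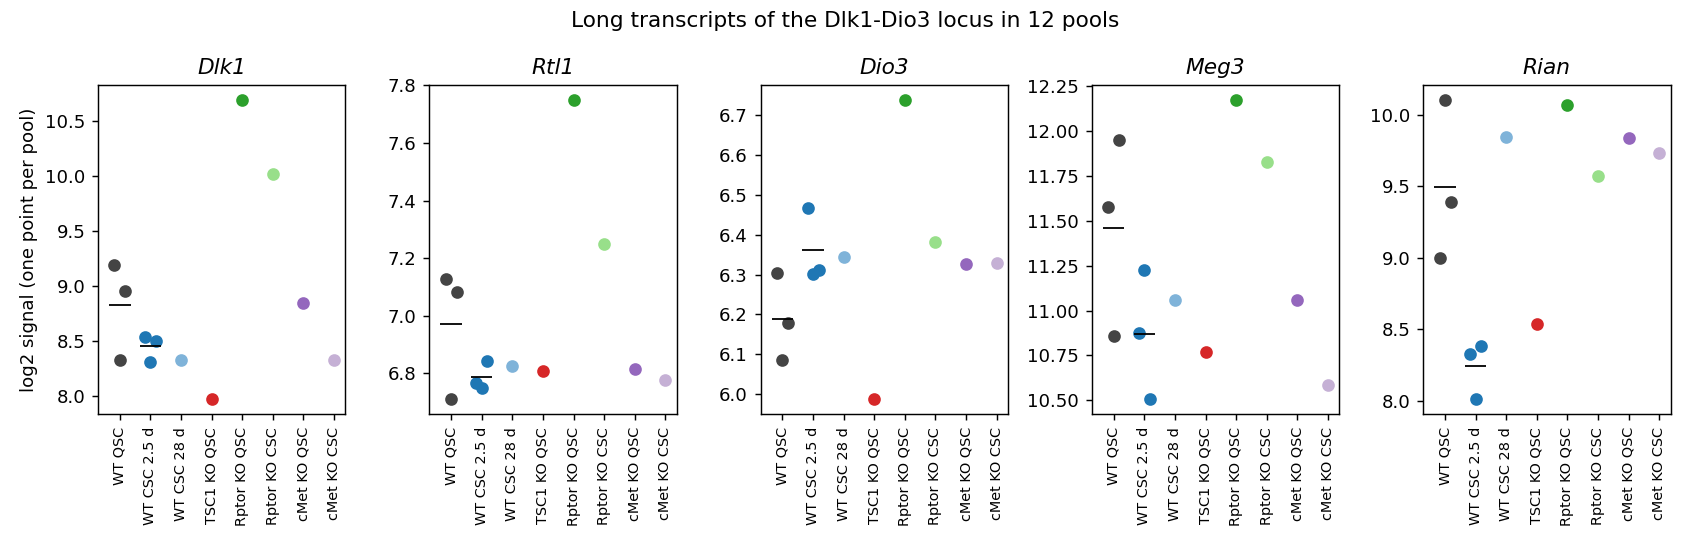
Log2 signal (y axis, a range of its own in each panel) of the 5 long transcripts with their own probeset, with 1 point per pool and groups along the x axis; lines mark the means of the groups of 3 pools. Rptor KO QSC was the highest pool for Dlk1, Rtl1, Dio3 and Meg3, and the 3 WT CSC pools at 2.5 days were the lowest for Rian.

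None of the paternally expressed coding genes was called. Dlk1, a transmembrane protein of the EGF-repeat family related to Notch ligands, was at 9.19, 8.33 and 8.95 in WT QSC and at 8.54, 8.31 and 8.50 in WT CSC. Its difference was -0.38 ± 0.21 (SE, adjusted p = 0.263). Rtl1, a retrotransposon-derived protein known in mice from placenta and fetal muscle, was at 7.13, 6.71 and 7.08 in WT QSC and at 6.77, 6.75 and 6.84 in WT CSC. Its difference was -0.19 ± 0.15 (SE, adjusted p = 0.424), so neither passed the test. Dio3, one of 9 members below the brightness filter and untested, was at 6.30, 6.09 and 6.18 in WT QSC against 6.47, 6.30 and 6.31 in WT CSC.

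Among the microRNA genes Mir376b had the smallest p. It was at 7.69, 7.29 and 7.71 in WT QSC and at 6.22, 6.71 and 6.22 in WT CSC. It fell by 1.18 ± 0.18 (SE, adjusted p = 0.00342), or 2.26-fold, with no overlap of the pools. Mir377 was at 9.40, 8.85 and 9.34 in WT QSC and at 8.33, 8.51 and 8.12 in WT CSC. Mir382 was at 9.76, 9.42 and 9.50 against 8.09, 8.82 and 8.77. Both had every CSC pool below every QSC pool, and they fell by 0.88 ± 0.18 and 1.00 ± 0.21 (SE, adjusted p = 0.0114 and 0.0120).

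Mir543 was at 6.86, 6.60 and 6.68 in WT QSC and at 6.18, 5.69 and 5.98 in WT CSC, and fell by 0.76 ± 0.16 (SE, adjusted p = 0.0121). Mir329 was at 9.41, 8.57 and 9.05 against 8.21, 7.95 and 7.79, and fell by 1.03 ± 0.21 (SE, adjusted p = 0.0126). In both genes the lowest QSC pool, number 2, was still above the highest CSC pool. Mir154 was at 7.79, 7.21 and 7.71 in WT QSC and at 6.33, 6.96 and 6.38 in WT CSC. Mir665 was at 8.23, 7.94 and 8.47 against 7.65, 7.39 and 7.13, and Mir496 at 7.12, 7.03 and 7.13 against 6.69, 6.36 and 6.16. These 3 also separated completely, falling by 1.01 ± 0.21, 0.82 ± 0.18 and 0.69 ± 0.16 (SE, adjusted p = 0.0131, 0.0166 and 0.0173).

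The other 11 microRNA genes called lower were Mir127, Mir300, Mir323, Mir341, Mir369, Mir380, Mir411, Mir485, Mir541, Mir668 and Mir679. Mir127, which lies antisense to Rtl1, fell by 0.71 ± 0.16 (SE, adjusted p = 0.0186), from 8.20, 7.60 and 7.80 in WT QSC to 7.17, 7.16 and 7.13 in WT CSC. Its CSC pools were close to each other and below each QSC pool. At the threshold lay Mir341 inside (-0.57, adjusted p = 0.0491) and Mir667 outside (-0.41, adjusted p = 0.0502). Calls were made in each stretch of the locus: 2 of 7 tested microRNAs between Meg3 and Rian, 1 of 2 in Rian, and 16 of 23 from Mir379 onward. The median differences of those 3 stretches were -0.53, -0.50 and -0.78 over 8, 2 and 30 genes, and the difference between stretches was not tested.

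**Figure D2:**
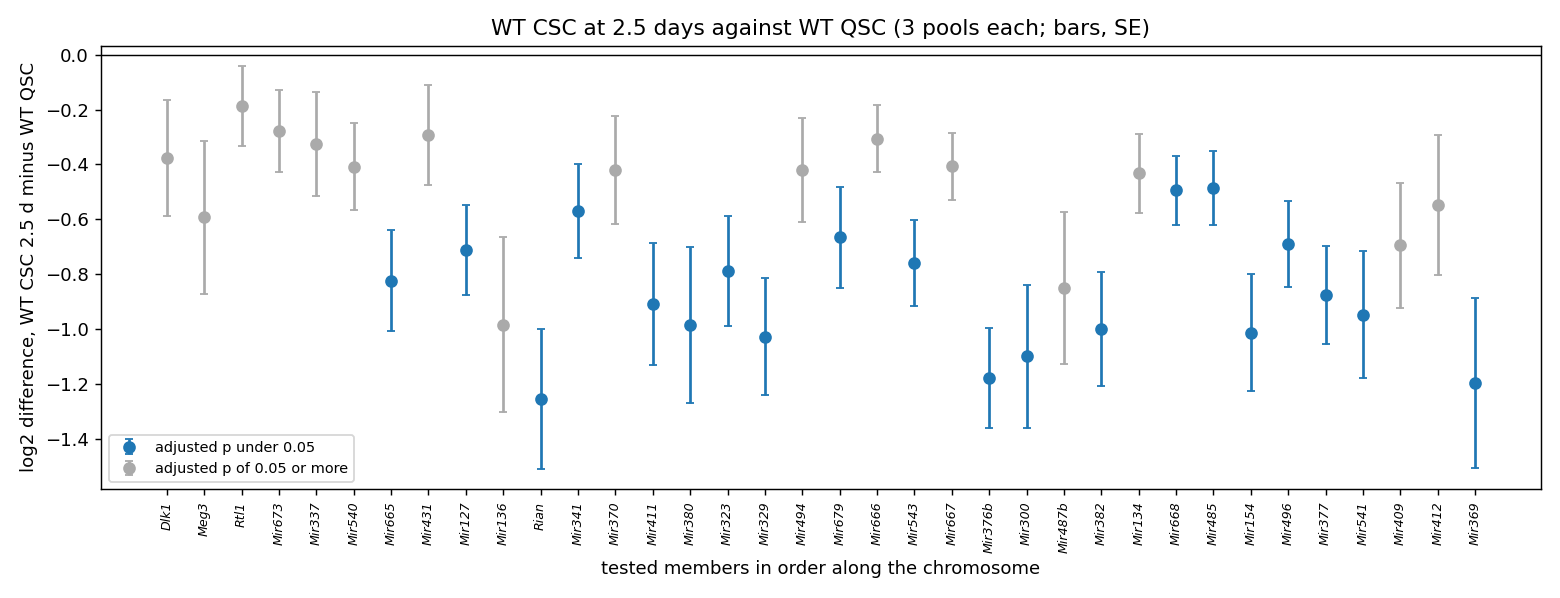
Log2 difference of WT CSC at 2.5 days minus WT QSC (y axis, bars are SE, 3 pools each) for the 36 tested members in chromosomal order (x axis). All 36 estimates lay below 0, and the 20 past the threshold are in blue.

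Genes of like kind elsewhere had medians near 0. The 257 microRNA genes outside the locus had a median difference of -0.08, and 4 of 105 tested were called lower. The 51 snoRNA genes outside the locus had a median of 0.03, and 1 of 47 tested was called lower. Inside the locus the unnamed noncoding genes DQ267101 and DQ267102 were both called lower (-1.09 ± 0.23 and -0.86 ± 0.26, SE, adjusted p = 0.0120 and 0.0492), and AF357341, untested, was at -0.43.

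Genes that flank the locus had a median near 0. Of 14 tested neighbours 0 fell and 2 rose: Wars, the cytosolic tryptophan tRNA synthetase (0.85 ± 0.20, adjusted p = 0.0200), and Cinp, a cell cycle checkpoint protein (0.61 ± 0.14, adjusted p = 0.0167). The third smallest p was that of the chaperone Hsp90aa1 (-0.44, adjusted p = 0.0950). The median over 16 measured neighbours was -0.02.

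Of 32 tested imprinted genes at other loci, 6 fell and 2 rose, with a median of -0.11 over 36. Zim1, a zinc finger gene beside Peg3, fell by 1.28 ± 0.19 (SE, adjusted p = 0.00255). Airn, the noncoding RNA that silences Igf2r in cis, fell by 0.82 ± 0.13 (SE, adjusted p = 0.00346). Mest, a paternally expressed gene of the hydrolase fold, rose by 1.28 ± 0.25 (SE, adjusted p = 0.00880). Imprinted genes elsewhere thus moved in both directions.

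Regulators of imprinting and of the locus also went both ways, with 5 called higher and 5 lower of 23 tested and a median of 0.01 over 24. Uhrf1 and Dnmt1, which maintain DNA methylation at replication, rose by 2.08 ± 0.17 and 1.34 ± 0.23 (SE, adjusted p = 0.000233 and 0.00499). Mef2a, the factor named above, rose by 0.73 ± 0.15 (SE, adjusted p = 0.0128). Of 28 tested genes of microRNA processing 5 rose and 2 fell. Ncbp1 of the nuclear cap-binding complex rose by 0.90 ± 0.14, Dgcr8 of the microprocessor by 0.94 ± 0.15 and Ran, which drives nuclear export, by 0.87 ± 0.14 (SE, adjusted p = 0.00347, 0.00351 and 0.00417). Drosha (0.30, adjusted p = 0.375) and Dicer1 (0.09, adjusted p = 0.652), the enzymes that cut microRNA precursors, did not pass. These 2 were picked by name after the values were seen.

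Markers of other cell types moved in the same pools. All 15 endothelial markers were lower in WT CSC, 11 of them past the threshold, and their mean level ran from 8.79 to 9.43 over the WT QSC pools and from 7.88 to 8.24 in WT CSC. The smallest p values were those of Emcn, Tek and Fabp4 (-1.79, -1.15 and -1.42). Fibro-adipogenic markers (5 of 13 called lower, 9.23 to 9.66 against 8.84 to 9.10; Dcn, Lum and Dpt) and pericyte and smooth muscle markers (6 of 11 called lower, all 3 QSC pools above the CSC pools in mean level; Rgs5, Tagln and Myh11) were also lower. Of 15 satellite cell markers 6 were called lower, with Chodl, Calcr and Pax7 at -1.28, -1.17 and -1.07. Mature fibre genes went both ways, with 10 of 16 higher and 6 lower (median 0.38). Of 13 tested 5 were called higher (Eno3, Actn3 and Tnnt3 by 3.59, 1.38 and 0.98) and 0 lower. Their mean level was 7.29 to 8.08 in WT QSC and 8.12 to 8.39 in WT CSC. Macrophage markers were higher in 9 of 15 and lower in 6 (median 0.09). Of 11 tested 0 were called, with 1 at an unadjusted p under 0.05 in limma (Ptprc, -0.38). The part of these cells in the fall of the locus was not tested.

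At 28 days the locus was near its level in noninjured mice. In the single WT CSC pool of that time the median difference of the 45 members from WT QSC was -0.15, with 31 lower and 14 higher, beside -0.01 over all tested genes. No member passed in limma, and 0 of 36 had an unadjusted p under 0.05. Over all genes 0% were called, so that this pool gave no call to read the members against. Rian was at 9.85 and Mir376b at 7.84, within and just above the range of the WT QSC pools, and above all WT CSC pools of 2.5 days. Meg3 was at 11.06, Dlk1 at 8.33, Rtl1 at 6.83, Dio3 at 6.34 and the probeset of Mirg and Mir410 at 8.94. Of the 45 members 5 lay below and 6 above all WT QSC pools, beside 19% below and 19.8% above among all tested genes. The endothelial markers had a mean of 8.16 in this pool against 8.79 to 9.43 in WT QSC, and their part in the members' values was not tested.

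The knockouts of TSC1 and Rptor, which act on mTORC1 in opposite ways, stood on opposite sides of the WT QSC mean. These values chose the locus and are a description. In Rptor KO QSC all 45 members were higher than the WT QSC mean, by a median of 1.11 on the log2 scale, beside -0.00 over all tested genes. Of them 24 were past 2-fold, and 21 of the 36 tested members, against 0.509% of all tested genes. In TSC1 KO QSC 44 of 45 were lower, all but Mir299, by a median of -0.55, beside 0.04 over all tested genes. Of them 7 were past 2-fold lower, and 6 of the 36 tested members, against 0.236% of all tested genes. Both differences use the same 3 WT QSC pools. The median member signal was 7.89, 7.31 and 8.06 in those pools, 7.31 in TSC1 KO QSC and 8.72 in Rptor KO QSC. By this measure the TSC1 KO pool was level with WT QSC pool 2, and the Rptor KO pool lay above all WT QSC pools. Set directly against each other, TSC1 KO QSC was lower than Rptor KO QSC in all 45 members, by a median of -1.64. It was lower by 2-fold or more in 38, and in 31 of the 36 tested members, against 1.47% of all tested genes.

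**Figure D3:**
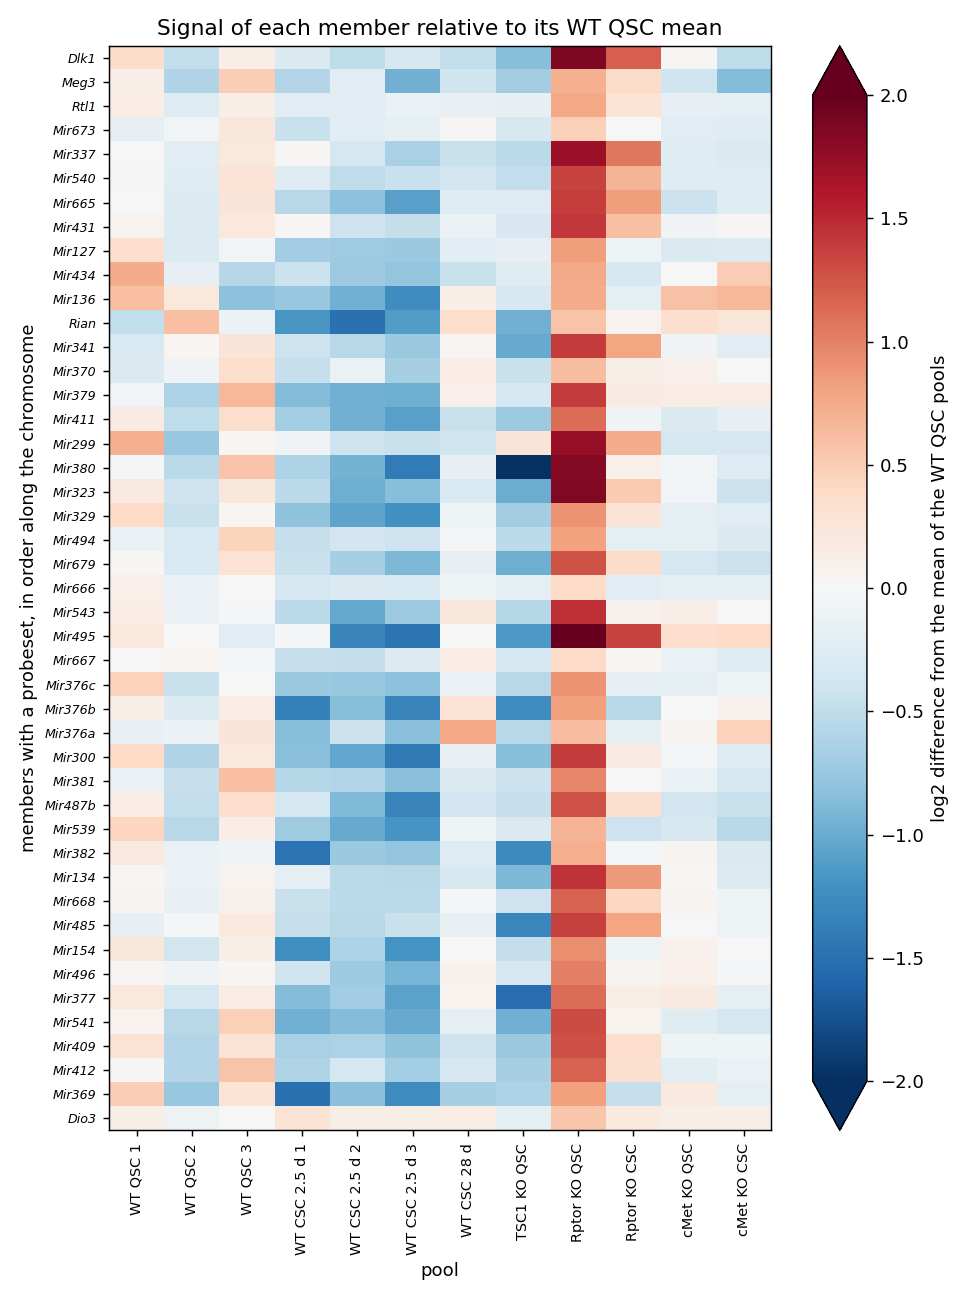
Signal of each of the 45 members (rows, in chromosomal order) in each of the 12 pools (columns), as the log2 difference from the member's mean over the WT QSC pools; the colour scale ends at -2 and 2. The Rptor KO QSC column is above 0 in all 45 rows, and the TSC1 KO QSC column is below 0 in 44.

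Fewer members separated array by array than pool by pool. The Rptor KO QSC pool lay above all 3 WT QSC pools in 44 of 45 members, and in 37 both of its arrays lay above every WT QSC array. It was the highest of all 12 pools in 43 members, with Rian (WT QSC pool 2) and Mir376a (WT CSC at 28 days) the exceptions. The TSC1 KO QSC pool lay below all 3 WT QSC pools in 34 members, and in 27 both arrays lay below every WT QSC array. Over all tested genes a single pool above all WT QSC pools was found in 24.9% for Rptor KO QSC, and one below them in 23.2% for TSC1 KO QSC.

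Among the coding genes Dlk1 had the widest gap. It was at 7.97 in TSC1 KO QSC and 10.69 in Rptor KO QSC, against 8.33 to 9.19 in WT QSC, a difference between the knockouts of -2.73 or 6.62-fold. Its arrays were at 7.88 and 8.05 in TSC1 KO QSC and at 10.60 and 10.79 in Rptor KO QSC, outside the WT QSC arrays of 8.29 to 9.23. Rtl1 was at 6.81 and 7.75, against 6.71 to 7.13 in WT QSC, so that only the Rptor KO pool lay outside the WT range. Dio3 was at 5.99 and 6.74, against 6.09 to 6.30.

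Of the noncoding hosts, Meg3 was at 10.77 in TSC1 KO QSC and 12.17 in Rptor KO QSC, against 10.86 to 11.95 in WT QSC. Rian was at 8.53 and 10.07, against 9.0 to 10.10, and the probeset of Mirg and Mir410 at 7.97 and 9.14, against 8.86 to 9.60. For Rian and the Mirg probeset the Rptor KO pool thus lay within the WT range and only the TSC1 KO pool outside it. The differences between the knockouts were -1.41 for Meg3 and -1.53 for Rian.

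Among the microRNA genes, the 6 widest gaps were those of 5 genes from Mir379 onward and of Mir341, which lies in Rian. Mir495 was at 4.58 in TSC1 KO QSC and 8.40 in Rptor KO QSC, against 5.95, 5.72 and 5.53 in WT QSC, a gap of -3.82 or 14.1-fold. Its TSC1 KO level was among the dim signals of the array, where the RMA values carry no detection call. Mir380 was at 6.08 and 9.89, against 8.03, 7.51 and 8.62 in WT QSC, a gap of -3.81. Its arrays were at 6.01 and 6.14 in TSC1 KO QSC and at 9.71 and 10.07 in Rptor KO QSC, with every WT QSC array between them.

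Mir323 was at 7.73 in TSC1 KO QSC and 10.57 in Rptor KO QSC, against 8.90, 8.31 and 8.95 in WT QSC. Mir485 was at 8.11 and 10.78, against 9.25, 9.37 and 9.61. Mir377 was at 7.67 and 10.32, against 9.40, 8.85 and 9.34. In each of these both knockout pools lay outside the WT range, with gaps of -2.84, -2.67 and -2.64. Mir341 was at 9.61 and 12.01, against 10.31, 10.66 and 10.88, a gap of -2.40.

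The narrowest gaps among microRNAs were in Mir666, Mir667, Mir673, Mir539, Mir127 and Mir434, from -0.56 to -1.004. Mir666 was at 7.96 in TSC1 KO QSC and 8.52 in Rptor KO QSC, against 8.24, 8.02 and 8.15 in WT QSC. Mir667 was at 9.60 and 10.33, against 9.96, 9.998 and 9.92, and Mir673 at 8.08 and 8.88, against 8.24, 8.35 and 8.63. In these 3 the TSC1 KO pool was still below and the Rptor KO pool above every WT QSC pool. Mir539 was at 6.15 and 7.12, against 6.86, 5.88 and 6.57. Mir127 was at 7.71 and 8.70, against 8.20, 7.60 and 7.80. Mir434 was at 5.28 and 6.29, against 6.27, 5.37 and 4.96, so that in these latter genes the TSC1 KO pool lay within the WT range.

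**Figure D4:**
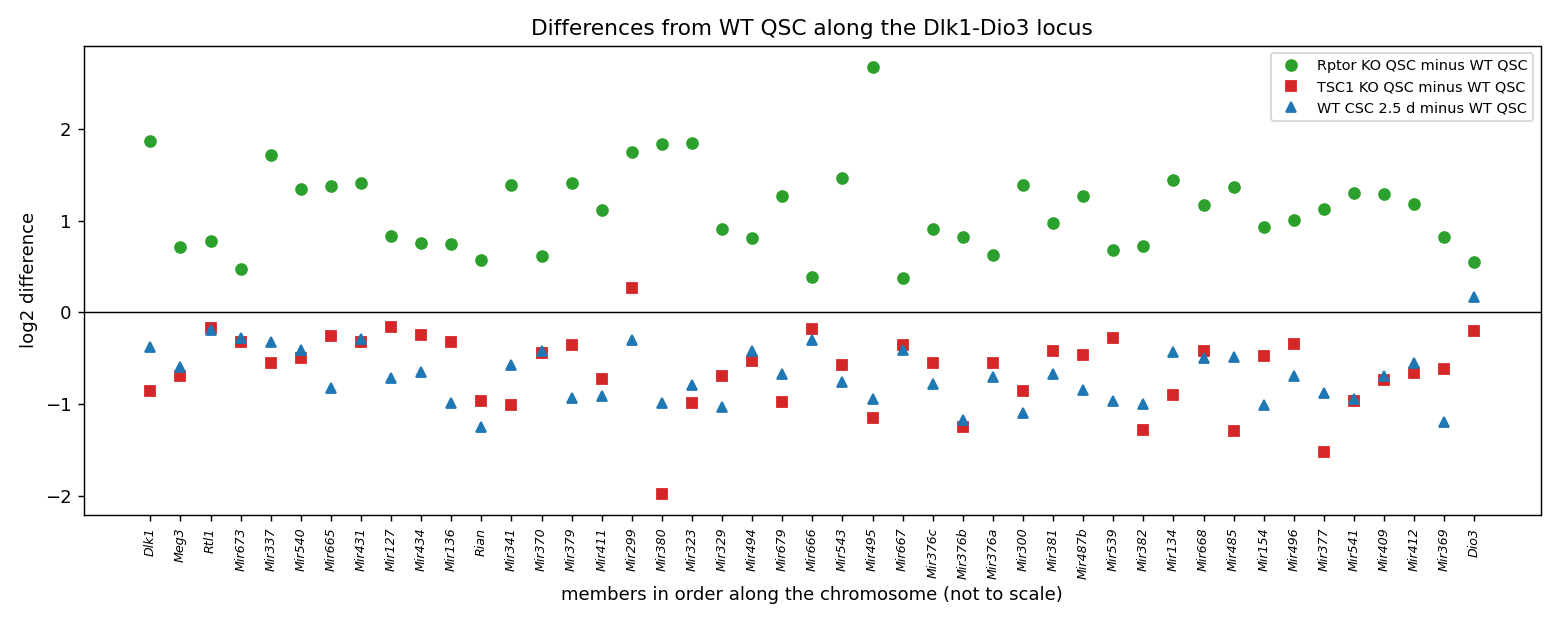
Log2 difference from the WT QSC mean (y axis) of Rptor KO QSC, TSC1 KO QSC (1 pool each) and WT CSC at 2.5 days (3 pools) for the 45 members in chromosomal order, not to scale (x axis). The Rptor KO points ran from 0.38 to 2.67 and the TSC1 KO points from -1.98 to 0.26; all 3 series share the WT QSC pools.

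Small RNA genes outside the locus were displaced the same way, to a smaller extent. The 257 other microRNA genes had a median of 0.28 in Rptor KO QSC (219 higher), -0.15 in TSC1 KO QSC (170 lower) and -0.36 between the knockouts. The 51 snoRNA genes outside the locus had medians of 0.24, -0.28 and -0.69 in the same comparisons. The locus microRNAs had medians of 1.15, -0.55 and -1.73. The sets differ in brightness: 105 of the 257 other microRNA genes passed the brightness filter, against 32 of the 40 locus microRNAs and 47 of the 51 snoRNA genes. The part of brightness in the sizes of these medians was not tested. The noncoding genes DQ267101 and DQ267102 inside the locus had a gap of -2.02 each.

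Genes around the locus and lists of related function had medians near 0. The 16 flanking genes had medians of -0.02 in both knockouts, and Begain, the neighbour of Dlk1, picked after the values were seen, was at 6.75 in TSC1 KO QSC and 7.45 in Rptor KO QSC against 6.65 to 7.16 in WT QSC. The medians between the knockouts were 0.10 for other imprinted genes, 0.09 for regulators and 0.01 for microRNA processing genes. Mature fibre genes were higher in TSC1 KO QSC than in Rptor KO QSC in 16 of 16, with a mean level of 8.21 against 7.31, and 7.29 to 8.08 in WT QSC. The endothelial mean was 8.90 against 9.09, and the macrophage mean 6.86 against 7.196, both within the WT QSC range of 8.79 to 9.43 and 6.82 to 7.33. Pericyte and smooth muscle markers were higher in TSC1 KO QSC in 9 of 11 (median 0.42), with a mean of 10.09, above every WT QSC pool, against 9.49 in Rptor KO QSC. Satellite cell markers were higher in 11 of 15 (median 0.38), with means of 11.94 and 11.54, and 11.49 to 11.94 in WT QSC. Fibro-adipogenic markers were higher in 5 of 13 (median -0.02). The part of any of these in the gap was not tested.

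**Figure D5:**
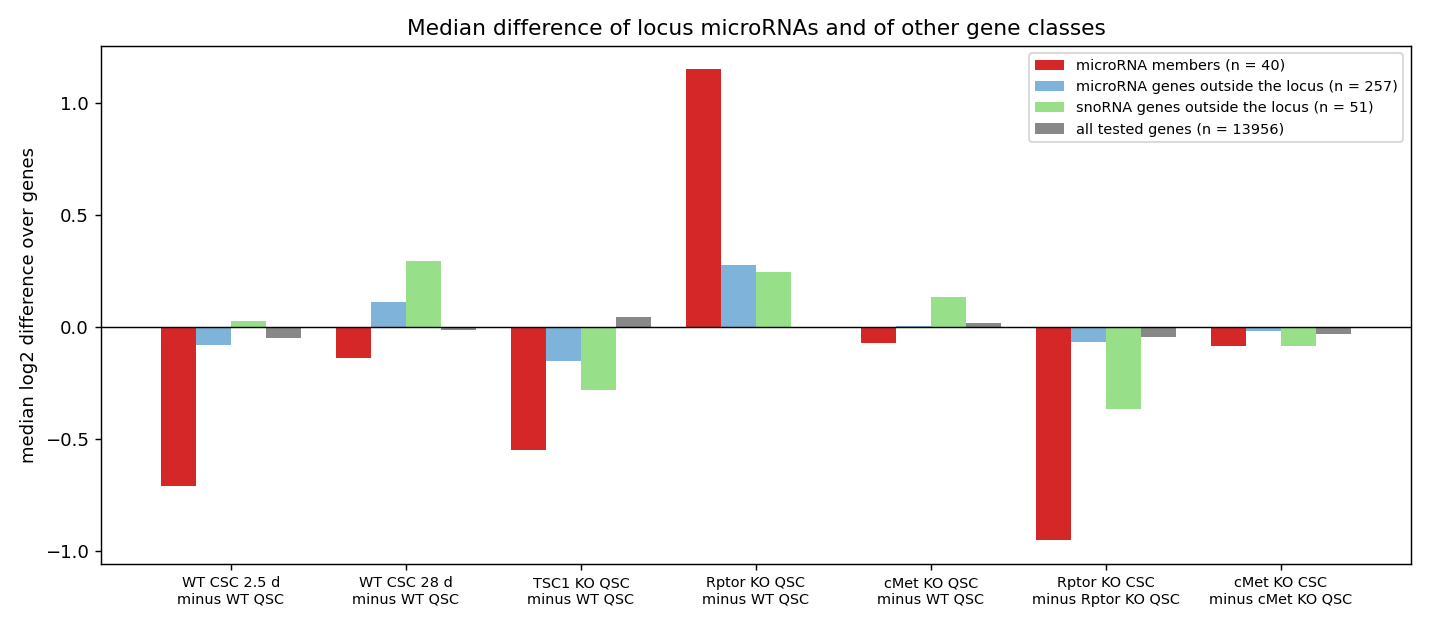
Median log2 difference (y axis) over the 40 locus microRNAs, 257 other microRNA genes, 51 snoRNA genes outside the locus and all 13956 tested genes in 7 comparisons (x axis). Of the first 3 sets 32, 105 and 47 genes passed the brightness filter. The locus microRNAs had the median farthest from 0 in Rptor KO QSC (1.15), TSC1 KO QSC (-0.55), WT CSC at 2.5 days (-0.71) and Rptor KO CSC against its QSC (-0.95).

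After injury of the other limb, the signals of the Rptor KO CSC pool were lower than those of the Rptor KO QSC pool in all 45 members. The locus was chosen in part for its high values in that same QSC pool, so that the choice itself favours a fall from it, and nothing is read from the test of this comparison. The median difference was -0.93 beside -0.04 over all tested genes. Of the 45 members 16 were lower by 2-fold or more. Of the 36 tested members 10 were, as were 40 of 13956 tested genes. No member passed in limma, and 0.258% of all tested genes were called, all of them higher. An unadjusted p under 0.05 was found for 21 of 36 members, all lower, and for 275 lower and 431 higher of all tested genes. Mir543 went from 8.18 to 6.80. Mir376b went from 8.38 to 7.01, but its arrays overlapped, at 7.67 and 9.10 in QSC and at 6.13 and 7.90 in CSC. Mir380 went from 9.89 to 8.16 and Mir495 from 8.40 to 7.08. The Rptor KO CSC pool was above all WT QSC pools in 18 of 45 members and below them in 3. Over all tested genes it was above in 23.4% and below in 30.9%. Among the 18 members were Dlk1 at 10.02, Rtl1 at 7.25, Mir323 at 9.24 and Mir485 at 10.19. Meg3 was at 11.83, Rian at 9.57, Dio3 at 6.38 and the probeset of Mirg and Mir410 at 8.61.

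The Rptor KO response minus the WT response, which uses the same Rptor KO QSC pool, had a median of -0.24 over the members, and 0 of 36 passed in limma, with 0 at an unadjusted p under 0.05, where 0% of all genes were called. Because the values of the Rptor KO QSC pool helped choose the locus, nothing is read from this test either. The Rptor KO side had a single pool in QSC and in CSC, and the SE of Mir376b was 0.36. Macrophage markers were high in the Rptor KO CSC pool, with 15 of 15 above Rptor KO QSC and a mean of 8.82 against 7.196, and 6.82 to 7.33 in WT QSC. Endothelial markers were lower than in Rptor KO QSC in 15 of 15 (median -0.47), satellite cell markers in 13 of 15 (-0.39) and snoRNA genes outside the locus in 46 of 51 (-0.37). The part of any of these in the lower signal of the locus was not tested.

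In the cMet knockout no member was called after injury of the other limb. In cMet KO QSC the median difference from WT QSC was -0.07, with 19 members higher and 26 lower, and 0 of 36 passed in limma or had an unadjusted p under 0.05 (0% of all tested genes called). From cMet KO QSC to cMet KO CSC the median was -0.09, again with 0 of 36 passed and 0 at an unadjusted p under 0.05 (0% of all tested genes). Rian was at 9.83 in QSC and 9.73 in CSC, and Mir376b at 7.57 and 7.66, all within the range of the WT QSC pools. Dlk1 went from 8.85 to 8.32 and Meg3 from 11.06 to 10.59. Rtl1 was at 6.82 and 6.78, Dio3 at 6.33 in both, and the probeset of Mirg and Mir410 at 9.27 and 9.003.

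The difference between the cMet KO and the WT response was tested directly. It was above 0 in 43 of 45 members, with a median of 0.62 beside -0.01 over all tested genes. It passed for 0 of 36 members in limma, and 0.158% of all tested genes were called. Of the 36 tested members 6 were above 0 by 2-fold or more and 0 below by as much. Of 13956 tested genes 293 were above and 407 below by that much. The smallest p was that of Mir376b (1.27 ± 0.36, SE, adjusted p = 0.250), followed by Mir665, Mir329 and Mir411 at 1.01, 1.02 and 1.02. Endothelial markers differed between these responses as well, with 15 of 15 above 0 and a median of 1.32. Their part in the difference of the members was not tested.

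Across the 12 pools the members rose and fell largely together, which is a description of pools that share their source and processing. The TSC1 KO and Rptor KO QSC pools, whose values chose the locus, are among the 12, so that the choice itself favours joint movement. The correlation of each microRNA with the median of all members, itself included, was highest for Mir411 (0.99) and Mir300 (0.98). Among the long transcripts Dlk1 and Rtl1 had the highest correlation (0.95), followed by Meg3 with Rtl1 (0.84) and with Dlk1 (0.83). Rian correlated with Meg3 at 0.32, since it was high in WT QSC pool 2, at 28 days and in the cMet KO pools, where Meg3 was not.

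The genes most like the mean of Meg3 and Rian were sought over all tested genes outside the locus. The 10 with the highest correlation over 12 pools were Pard3b (0.95), Nf1 (0.94), 9530091C08Rik, Rffl, Tmem220, Gpr135, Erich4, Cbfa2t3, Plagl1 and Odf3b (0.92). Pard3b is a polarity protein, Nf1 encodes neurofibromin, a brake on Ras, and Plagl1 is a zinc finger factor that is itself imprinted. Plagl1 was at 10.64, 10.85 and 10.64 in WT QSC and at 10.05, 10.09 and 10.16 in WT CSC, and fell by 0.61 ± 0.13 (SE, adjusted p = 0.0116). It was at 10.34 in TSC1 KO QSC and 11.07 in Rptor KO QSC, on either side of the WT QSC pools. Its range was narrower than that of Rian. The 10 genes were picked for following Meg3 and Rian over these same pools. That choice favours such differences, so nothing is read from those of Plagl1 or from its test.

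The Meg3 promoter is shown because a motif was found in it. Its part in the joint movement of the members across the pools was not tested. As said above, the choice of the locus itself favours that joint movement. It was not limited to the maternal copy: Rtl1, Dlk1 and Dio3 correlated with the member median at 0.86, 0.80 and 0.51. RefSeq lists 2 promoter entries for Meg3 of 300 bases each around the start, and the cAMP response element TGACGTCA, a palindrome that reads the same on both strands, lies in 1 of them, as it does in 1.79% of 32851 promoters. It covers bases 194 to 201 of the entry and is in capitals in the sequence, on the plus strand of chr12:109540746-109541045 (GRCm38.p6).
Meg3 promoter: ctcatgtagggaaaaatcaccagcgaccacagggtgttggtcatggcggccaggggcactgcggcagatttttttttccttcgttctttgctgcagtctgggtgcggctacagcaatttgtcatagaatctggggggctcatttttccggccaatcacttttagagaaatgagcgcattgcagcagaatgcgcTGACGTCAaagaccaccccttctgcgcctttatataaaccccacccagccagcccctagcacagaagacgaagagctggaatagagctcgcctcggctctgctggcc
The same entry holds TATAAA, which is in 13.6% of all promoters on one strand or the other and does not overlap the first motif. TATAAA was also in the entry of Dio3, and in none of those of Dlk1, Rian and Mirg. The E-box CACGTG, in 7.15% of promoters, was in none of the entries for Dlk1, Meg3, Rian, Mirg and Dio3, and the cAMP response element was in none of those of Dlk1, Rian, Mirg and Dio3. A match in these letters is not evidence of binding.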

How the data were processed

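The authors deposited log2 signals per probeset. The submitters' processing notes name RMA and Affymetrix Expression Console. No source used here gives the genome build, the library files or which arrays were normalized together. Per the labels' protocols, 100 ng of total RNA was labelled. Of 35556 probesets 21789 have 1 symbol in the platform table, 1621 several and 12146 none. Mir299 and Mir496 were matched through the symbols Mir299a and Mir496a. A gene with several probesets was read from the brightest. Arrays of a pool were averaged, so that pools, not arrays, are replicates.

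The test covered the 13956 genes whose mean over the pools exceeded the 30th percentile (log2 6.45). limma 3.58.1 (R 4.3.3; lmFit, then eBayes) estimated 8 group means, and p was adjusted by Benjamini-Hochberg over all tested genes, with calls at 0.05. Only the WT pools supply residual degrees of freedom (4, with a prior of 5.01), so that a lone pool is assumed to vary like them. The fit was tested on simulated data. Members and lists were chosen with earlier results of these data known. The text names the long transcripts, up to 8 microRNAs called with the smallest p, the 6 widest and 6 narrowest gaps between TSC1 KO QSC and Rptor KO QSC, 10 genes by likeness, and up to 3 genes per list by p in WT CSC. Other members and genes it names were chosen after their values were seen. Alternatives were another normalization, filter, probeset rule, eBayes setting or use of arrays, each WT pool left out, and the replicate number as a block. Leaving out 3 second arrays was chosen after seeing the data. Figures were drawn with matplotlib 3.10.9.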

Additional observations from a re-analysis of the deposited data

How the results depend on the processing

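The count of members called lower in WT CSC at 2.5 days, 20, ranged from 4 to 24 when 1 WT pool was left out. It was 6 when a 2-fold difference was also required (Rian, Mir154, Mir300, Mir329, Mir369 and Mir376b) and from 15 to 24 under the other alternatives, and all members called in any of them were lower. It was 15 with arrays centred on their medians and 15 with a filter at the 50th percentile, where fewer genes were tested. None of these counts is set beside the share of all tested genes called lower under the same alternative. Median centring also moved the share of lower genes among all calls from 40.9% to 32.9%, and the median of all tested genes between TSC1 KO and Rptor KO QSC from 0.05 to 0.16, against which the members' median was -1.52. With the WT pools alone and the replicate block the count was 21, against 20 with no replicate block. Deviations of same-numbered WT pools correlated at 0.32, -0.03 and -0.03. These values do not settle whether the numbers pair the pools, and the labels do not say. Between the Rptor KO pools, CSC against QSC, the call of Mir543 depended on the setting. Mir543 passed with the trend and robust options, and with all arrays and the pool as a random block, but not in the main fit. The cause was not tested. The high values of that QSC pool helped choose the locus, so nothing is read from this call. The medians of the members kept their sign throughout: -0.69 to -0.45 for TSC1 KO QSC, 0.89 to 1.27 for Rptor KO QSC and -2.01 to -1.52 between them, the widest with the first arrays alone. The counts of 0 in the other 5 comparisons stayed 0. The number of pools, with signals under the brightness filter for Mir495, Mir376a, Mir434 and Mir299, limits what can be resolved.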

Other observations

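Cdkn1c, an imprinted cyclin-dependent kinase inhibitor on another chromosome, had the widest gap between the knockouts among the other imprinted genes, and in the opposite direction to the Dlk1-Dio3 members. It was chosen after its values were seen. It stood at 11.53 in TSC1 KO QSC and 8.42 in Rptor KO QSC, against 10.70, 9.90 and 11.48 in WT QSC, a gap of 3.11 on the log2 scale. It was at 8.50 in Rptor KO CSC. The cMet KO pools were at 10.52 (QSC) and 10.001 (CSC). Mest, also imprinted, was at 9.50 in TSC1 KO QSC and 8.54 in Rptor KO QSC, against 10.50, 9.43 and 10.17 in WT QSC.

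The noncoding genes near Rian differed in which WT QSC pool was highest. DQ267101 was at 6.40, 7.36 and 7.12 in WT QSC, with pool 2 the highest, as for Rian. It was at 5.94, 5.77 and 5.90 in WT CSC at 2.5 days, 7.32 at 28 days, 5.85 in TSC1 KO QSC, 7.87 in Rptor KO QSC and 7.56 in cMet KO QSC. DQ267102 was at 9.93, 11.06 and 10.70 in WT QSC and at 9.62, 9.61 and 9.88 in WT CSC at 2.5 days. AF357341, the third such gene, was at 6.59, 6.37 and 6.56 in WT QSC, with pool 2 the lowest, as in Meg3, Dlk1 and Rtl1.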
